A study of Mus musculus with 12 samples.

Results

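The genes described here carry cholesterol into testosterone in the fetal testis, or mark the Leydig cells in which most of that conversion takes place. They were chosen by symbol, and all 10 of them (*Scarb1*, *Star*, *Cyp11a1*, *Hsd3b1*, *Hsd3b6*, *Cyp17a1*, *Hsd17b3*, *Hsd17b1*, *Lhcgr* and *Insl3*) were among the 35976 gene symbols that were counted. RNA was sequenced from whole testes of outbred Swiss (RjOrl) mouse embryos at E15.5, and each of the 12 libraries came from a pool of 3 embryos. F1 *thia* embryos developed in mothers that were gavaged with 6 mg/kg/day of thiacloprid (*thia*), a neonicotinoid insecticide, between E6.5 and E15.5, and F1 control embryos in mothers of the dose "0". F3 *thia* and F3 control embryos descended from such F1 males and then F2 males, each mated with untreated females that were not related to them, so the F3 embryos themselves received no compound. Each of the 4 groups had 3 libraries. Swiss mice are outbred, so pools differ in genotype as well, and the labels do not say whether the 3 embryos of a pool were littermates or which founder an F3 pool came from. P-values therefore measure the spread between these pools.

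Fetal Leydig cells lie between the testis cords. Cholesterol enters them from lipoproteins through the scavenger receptor *Scarb1*, *Star* moves it to the inner mitochondrial membrane, and *Cyp11a1* cleaves its side chain to give pregnenolone. *Hsd3b1* turns pregnenolone into progesterone, and *Cyp17a1* makes androstenedione from it. *Hsd17b3*, and to a lesser degree *Hsd17b1*, reduce androstenedione to testosterone. In the fetal mouse testis this last step is known to take place largely in Sertoli cells, and *Hsd3b6* is best known as the isoform of adult Leydig cells, so the label of fetal Leydig genes covers the 10 members unequally. Luteinizing hormone acts through *Lhcgr*, and the peptide hormone *Insl3* drives the descent of the testis.

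The regulator NR5A1 (SF-1) binds next to many genes of this pathway, at a site that ends in AGGTCA or holds CAAGGNC. Promoter windows of 250 bases before the RefSeq start site (GRCm38.p6, the mm10 build) were matched for 6 of the 10 members, and no window was matched for *Scarb1*, *Star*, *Cyp17a1* or *Hsd17b1*. The sequences below are shown because *Lhcgr* and *Insl3* had the motif and because *Hsd3b1* and *Hsd3b6*, neighbouring genes whose products catalyse the same step, differed in their levels in F3. Matches are in capitals, each sequence is given 5′ to 3′ on the strand of the gene, and the *Insl3* window stops short of an annotated exon.
Lhcgr promoter, chr17:88792015-88792264, minus strand: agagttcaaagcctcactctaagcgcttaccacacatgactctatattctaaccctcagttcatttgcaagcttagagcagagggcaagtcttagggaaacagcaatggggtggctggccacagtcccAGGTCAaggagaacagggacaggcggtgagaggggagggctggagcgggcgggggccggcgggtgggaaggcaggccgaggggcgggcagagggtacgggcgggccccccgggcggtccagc
Insl3 promoter, chr8:71689002-71689201, plus strand: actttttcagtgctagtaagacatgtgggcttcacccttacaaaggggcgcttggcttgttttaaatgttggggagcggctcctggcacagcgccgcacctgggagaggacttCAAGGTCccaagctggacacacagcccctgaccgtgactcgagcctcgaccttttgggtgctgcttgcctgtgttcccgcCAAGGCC
Cyp11a1, site in the window of its internal start, chr9:58014912-58014941, plus strand: gaggaaggggggAGGTCAccgctccatcag
Hsd3b1 promoter, chr3:98859795-98860044, minus strand: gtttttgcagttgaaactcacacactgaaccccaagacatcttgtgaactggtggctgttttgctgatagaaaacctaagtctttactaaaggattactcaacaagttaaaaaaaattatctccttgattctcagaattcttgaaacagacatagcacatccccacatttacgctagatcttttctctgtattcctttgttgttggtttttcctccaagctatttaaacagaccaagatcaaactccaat
Hsd3b6 promoter, chr3:98814444-98814693, minus strand: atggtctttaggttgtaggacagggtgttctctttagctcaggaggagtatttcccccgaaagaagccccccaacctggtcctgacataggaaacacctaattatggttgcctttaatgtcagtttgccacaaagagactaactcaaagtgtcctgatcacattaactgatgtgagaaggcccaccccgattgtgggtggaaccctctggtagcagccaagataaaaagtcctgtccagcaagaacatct

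In *Lhcgr* the match to AGGTCA lay 122 to 117 bases before the start site. *Insl3* had a pair of matches to CAAGGNC, at 137 to 131 and at 57 to 51 bases before the start. Neither motif, on either strand, was found in the windows of *Hsd3b1*, *Hsd3b6* and *Hsd17b3* or in the upstream *Cyp11a1* window (chr9:57997774-57998023). That window lies outside the annotated span of *Cyp11a1* given below, and the bases just before that span were not examined. Of 32851 mouse promoter windows of this length, 14.0% held AGGTCA, 15.0% held CAAGGNC and 25.9% held either of them. The 6 members had 7 such windows, and 3 of these held a match, which describes these letters and no binding. The window of the internal *Cyp11a1* start lay within an annotated exon over all of its 250 bases.

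The genes lie on separate chromosomes apart from the *Hsd3b* pair and the *Star* and *Insl3* pair. In mm10, *Scarb1* spans chr5:125277087-125341094, *Star* chr8:25806555-25815982, *Cyp11a1* chr9:58006411-58027023, *Cyp17a1* chr19:46667165-46673172 and *Lhcgr* chr17:88716481-88791990. *Hsd3b1* (chr3:98852194-98859794) and *Hsd3b6* (chr3:98805504-98814443) are on the minus strand of chromosome 3, and their reading frames of 1122 bases each were 90.0% identical. *Hsd17b3* (chr13:64058266-64089230) and *Hsd17b1* (chr11:101078411-101080527) shared 43.2% of their reading frame, so they are distant relatives at the sequence level.

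Reads can be told apart between *Hsd3b1* and *Hsd3b6*, since no stretch of 100 bases was identical between their transcripts. Of the stretches in *Hsd3b6*, 3.11% were also in *Hsd3b2* or *Hsd3b3*. *Insl3* (chr8:71689214-71690575) is less certain, because 404 of its 623 exon bases overlapped exons of *Jak3* on the same strand and 58.2% of its stretches were shared with that gene. How the counting treated these reads is not given in the sources used here, and *Jak3* itself was at 6.45 to 11.8 CPM in the 12 libraries. In *Cyp11a1*, 0.959% of the stretches were shared with an overlapping predicted gene.

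Total counts per library ranged from 25081647 to 68996146. The lowest count of any member was 33, for *Hsd3b6* in F1 control replicate 3, and the highest was 242311, for *Cyp17a1* in F3 *thia* replicate 3. Levels are given as CPM, counts scaled to the library total with TMM factors, and each mean is followed by its SD over 3 libraries. One F3 *thia* library, replicate 2, stood apart from the other two: its chi-square per degree of freedom over genes was 90.7 and 101 against them, while these other two differed by 36.2 and the F3 control libraries by 17.3 to 26.5. Counts of members and of list genes past a threshold in F3 are given with and without it. F3 *thia* replicate 2 also had the highest erythroid marker sum of its group, at 74884 CPM beside 38222 and 43224.5 CPM. Its skeletal muscle sum was 178 CPM beside 64.1 and 71.6 CPM, and its Sertoli sum was the lowest, at 462 CPM beside 857 and 905 CPM. F1 *thia* replicate 2 had skeletal muscle transcripts at 541 CPM in sum over 8 marker genes, where the other F1 libraries had 24.6 to 70.2.

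To compare genes with each other, levels were divided by exon length, and the unit is then CPM per kilobase. In F1 controls *Cyp17a1* was the highest, at 491 ± 50.8 CPM per kilobase (SD, n = 3), followed by *Hsd3b1* at 347 ± 16.6, *Insl3* at 264 ± 39.6 and *Cyp11a1* at 193 ± 21.1. *Star* followed at 98.5 ± 14.0, and *Hsd17b3* and *Scarb1*, whose ranges overlapped, at 70.7 ± 2.62 and 66.7 ± 10.0. *Hsd17b1* was at 30.0 ± 5.97, *Lhcgr* at 4.09 ± 0.560 and *Hsd3b6* at 1.15 ± 0.748. Apart from the *Hsd17b3* and *Scarb1* pair, the ranges of neighbours in this order did not overlap. *Hsd3b1* thus exceeded its adult-type relative *Hsd3b6* in every library by a wide margin, with the ratio of *Hsd3b6* to *Hsd3b1* in CPM between 0.00201 and 0.0364.

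**Figure D1:**
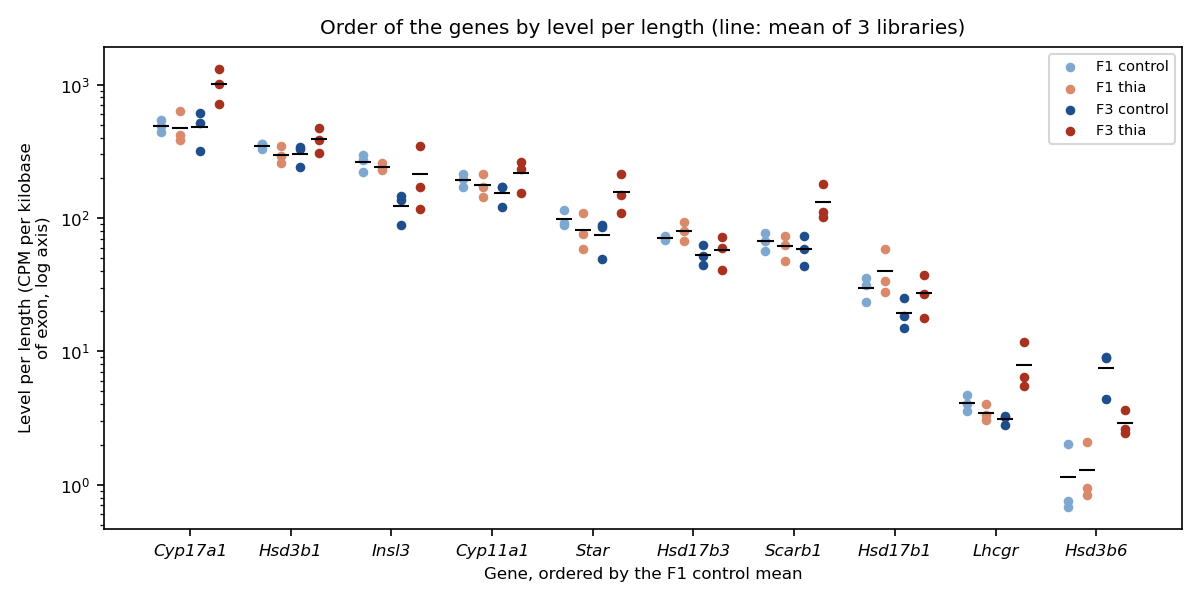
Level per length (CPM per kilobase of exon, logarithmic axis) of each gene in each library, coloured by group, with the mean of the 3 libraries as a line and the genes ordered by their F1 control mean. *Cyp17a1* is at the top in all groups, and *Hsd3b6* moves from below *Lhcgr* in both F1 groups to above it in F3 controls.

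The top of this order was shared by all groups, with *Cyp17a1* first and *Hsd3b1* second in each. In F3 controls the ranges of these 2 genes overlapped, whereas in the other groups they did not. *Insl3* ranked below *Cyp11a1* in both F3 groups, with overlapping ranges. *Hsd3b6* and *Lhcgr* exchanged places in F3 controls, where *Hsd3b6* was at 7.46 ± 2.65 CPM per kilobase and *Lhcgr* at 3.12 ± 0.255, and their ranges did not overlap.

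In F1, the comparison asks what direct exposure in the womb did to the pathway. None of the 10 members passed the edgeR quasi-likelihood test at an FDR of 0.15, where 0.0105% of the 19137 genes tested passed, and none had an unadjusted p under 0.05, where 8.76% of genes did. DESeq2 called none of them either, against 1.07% of its genes. The groups of no member were free of overlap, where 6.55% of all genes lay higher and 8.45% lower without overlap. The median log2 fold change over the 10 members was -0.11, beside 0.01 over all genes tested. Adjusted p-values (edgeR, Benjamini-Hochberg) were between 0.616 and 0.970.

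*Star*, the transfer protein, was at 471, 377 and 367 CPM in F1 controls and at 240.3, 309.5 and 447 CPM in F1 *thia* libraries. F1 *thia* replicate 3 lay within the control range and the other two below it, and the log2 fold change was -0.27 ± 0.20 (SE), with a 95% interval of -0.71 to 0.17. *Cyp17a1* was at 1499, 1361 and 1217 CPM in F1 controls and at 1064, 1151 and 1741 CPM in F1 *thia* libraries, so that its *thia* values lay on both sides of the control range. Its log2 fold change was -0.03, with an interval of -0.42 to 0.36.

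*Lhcgr* was at 35.9, 27.4 and 30.6 CPM in F1 controls and at 23.2, 25.3 and 30.8 CPM in F1 *thia* libraries, a log2 fold change of -0.23 (95% interval -0.53 to 0.08). *Hsd3b1* was at 661, 661 and 607 CPM in F1 controls against 475, 537 and 641 CPM, a log2 fold change of -0.21 (-0.47 to 0.06). *Scarb1*, *Cyp11a1* and *Insl3* had log2 fold changes between -0.12 and -0.11. The largest positive value in F1 was that of *Hsd17b1*, at 0.44 (-0.10 to 0.99), with 42.0, 31.5 and 47.1 CPM in controls and 37.6, 45.2 and 78.6 CPM in *thia* libraries. Its range was set by F1 *thia* replicate 3, which was the highest library of its group for 9 of the 10 members. These intervals leave room for changes of up to about 1 log2 unit in *Hsd17b1* and *Hsd3b6* and exclude changes of that size in the other 8 members.

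**Figure D2:**
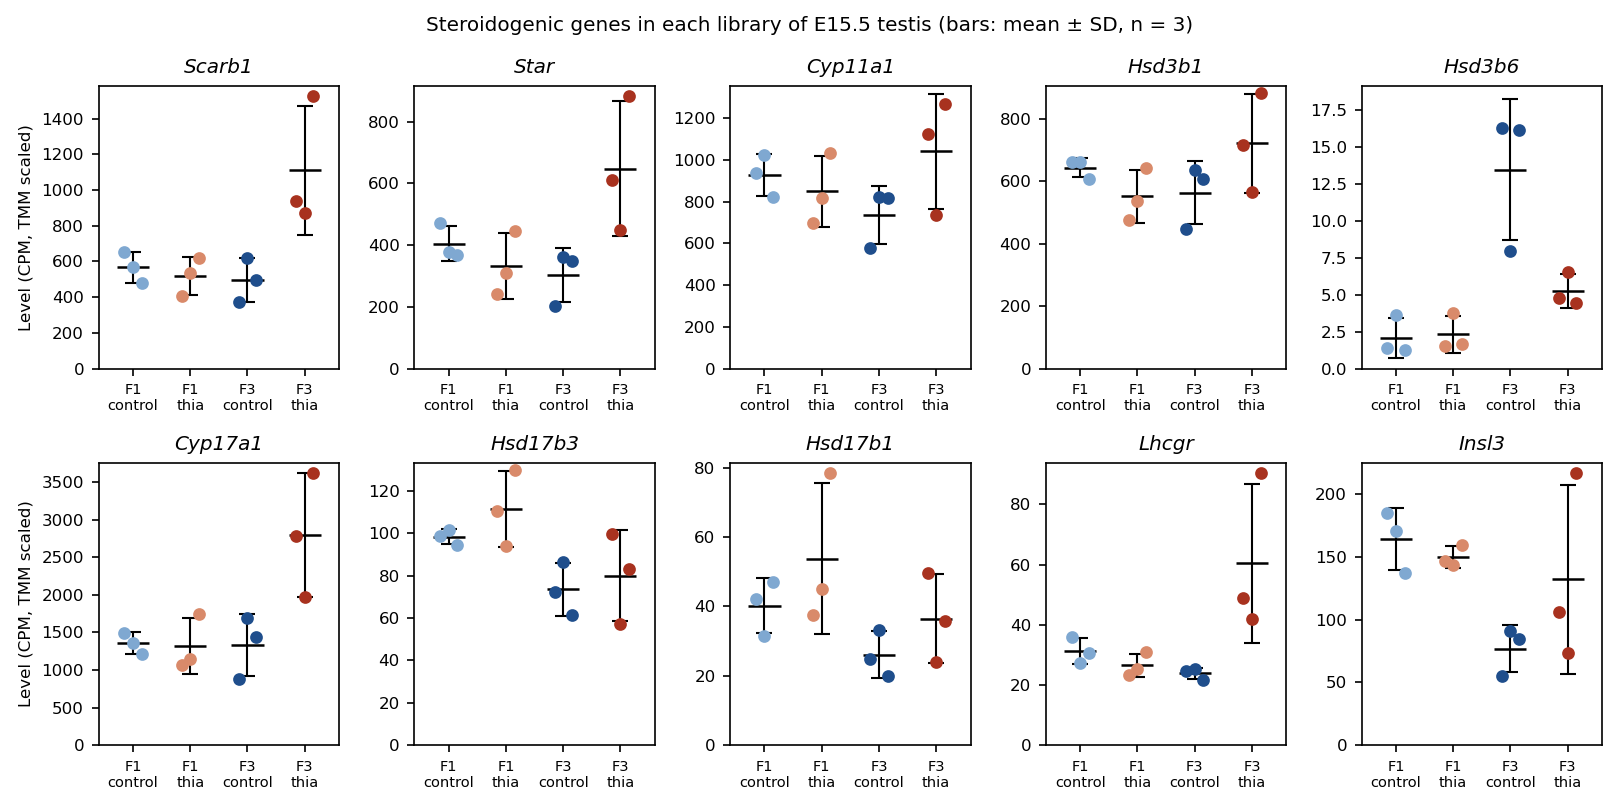
Level of each gene (CPM after TMM scaling, linear axis from 0) in each library, with the mean and SD of 3 libraries per group. *Scarb1*, *Star*, *Cyp17a1* and *Lhcgr* are higher in every F3 *thia* library than in any F3 control library, *Hsd3b6* is lower, and the other genes overlap.

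In F3, the comparison asks whether descent from exposed males is accompanied by a difference in unexposed embryos. *Scarb1*, *Star*, *Cyp17a1* and *Lhcgr* had levels 2.09 to 2.54 times those of controls and *Hsd3b6* had 0.388 times, and for these 5 members the groups did not overlap. By the edgeR test at the FDR of 0.1 none of the members, and 0% of the 18539 genes tested, passed: the smallest adjusted p of a member was 0.105. By DESeq2 at the same FDR these 5 members passed, 4 of them higher, where 9.54% of the genes that it tested passed as higher and 5.95% as lower. The same 5 had an unadjusted edgeR p under 0.05, which 21.1% of all genes reached. Of all genes, 13.4% lay higher and 13.9% lower in F3 *thia* without overlap. The median log2 fold change of the 10 members was 0.64, beside 0.00 over all genes tested. The study selected *Star*, *Scarb1* and *Cyp17a1* from these F3 libraries for RT–qPCR, so their presence among the members is not independent evidence of a direction. By RT–qPCR in F3 embryonic testis the paper reports only tendencies to an increase for these genes.

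The genes that bring cholesterol to the pathway had similar ratios. *Scarb1* was at 372, 618 and 498 CPM in F3 controls and at 938, 869 and 1526 CPM in F3 *thia* libraries. The lowest *thia* library exceeded the highest control library, and the log2 fold change was 1.16 ± 0.26 (SE), 2.24-fold with a 95% interval of 1.47 to 3.42 (adjusted p = 0.105 by edgeR and 0.000126 by DESeq2). *Star* was at 203, 361 and 349 CPM in F3 controls and at 612, 449 and 882 CPM in F3 *thia* libraries. Its groups did not overlap, and the log2 fold change was 1.09 ± 0.30 (2.13-fold, 1.32 to 3.43, adjusted p = 0.126 by edgeR and 0.00153 by DESeq2).

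Among the enzymes of Leydig cells, *Cyp17a1* was separated and the enzymes that act before it were not. *Cyp17a1* was at 882, 1688 and 1436 CPM in F3 controls and at 2781, 1977 and 3628 CPM in F3 *thia* libraries, a log2 fold change of 1.07 ± 0.29 (2.09-fold, 1.31 to 3.34, adjusted p = 0.125 by edgeR and 0.00145 by DESeq2). *Cyp11a1*, the side-chain cleavage enzyme, was at 577, 820.3 and 815 CPM in F3 controls and at 1121, 734 and 1267 CPM in F3 *thia* libraries. F3 *thia* replicate 2 lay within the control range, and the log2 fold change was 0.50 ± 0.22 (adjusted p = 0.255 by edgeR and 0.102 by DESeq2). *Hsd3b1* was at 447, 634 and 608 CPM in F3 controls and at 716, 565 and 883 CPM in F3 *thia* libraries, again with replicate 2 inside the control range and a log2 fold change of 0.36 ± 0.19 (adjusted p = 0.336 by edgeR and 0.208 by DESeq2).

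The enzymes of the last step overlapped. *Hsd17b3* was at 72.2, 86.5 and 61.6 CPM in F3 controls and at 99.8, 57.0 and 83.2 CPM in F3 *thia* libraries, a log2 fold change of 0.12 with a 95% interval of -0.36 to 0.61. *Hsd17b1* was at 24.8, 33.3 and 20.0 CPM in controls and at 49.6, 24.0 and 35.9 CPM in *thia* libraries, a log2 fold change of 0.49 (-0.16 to 1.14). In both genes the highest F3 *thia* library was replicate 1, whereas it was replicate 3 for the other members except *Hsd3b6*. A fold of the size seen in *Cyp17a1* lies outside the interval of *Hsd17b3* and inside that of *Hsd17b1*.

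The hormone receptor had the largest ratio. *Lhcgr* was at 24.7, 25.2 and 21.6 CPM in F3 controls and at 48.8, 41.9 and 90.5 CPM in F3 *thia* libraries. The controls were close together and all 3 *thia* libraries lay above them, with a log2 fold change of 1.35 ± 0.28 (2.54-fold, 1.62 to 3.998, adjusted p = 0.105 by edgeR and 3.05e-05 by DESeq2). *Insl3* was at 55.3, 90.7 and 84.5 CPM in F3 controls and at 106, 73.3 and 217 CPM in F3 *thia* libraries, a log2 fold change of 0.78 with a wide interval, -0.13 to 1.70 (adjusted p = 0.297 by edgeR). *Jak3*, which shares exon bases with *Insl3*, was at 7.22 to 8.15 CPM in F3 controls and 8.63 to 11.8 CPM in F3 *thia* libraries, and its part in the *Insl3* value was not tested.

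*Hsd3b6* differed in the opposite direction. It was at 16.3, 7.92 and 16.1 CPM in F3 controls and at 4.75, 6.53 and 4.43 CPM in F3 *thia* libraries. F3 control replicate 2 was close to the *thia* libraries and the other two controls lay well above them, and the log2 fold change was -1.37 ± 0.30 (adjusted p = 0.105 by edgeR and 0.000230 by DESeq2). Both F1 groups were lower than either F3 group, with 1.22 to 3.62 CPM in F1 controls and 1.52 to 3.74 CPM in F1 *thia* libraries. *Cdh16*, a cadherin of kidney and mesonephric tubules, had a similar order in F3, with 3.01, 1.05 and 2.76 CPM in controls and 0.954, 0.690 and 0.898 CPM in *thia* libraries. The mesonephros list as a whole (5 of 5 genes in the files) summed to 47.2 to 60.8 CPM in F3 controls and 40.3 to 53.5 CPM in F3 *thia* libraries, which overlapped, and the part of such tissue in the *Hsd3b6* value was not tested.

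**Figure D3:**
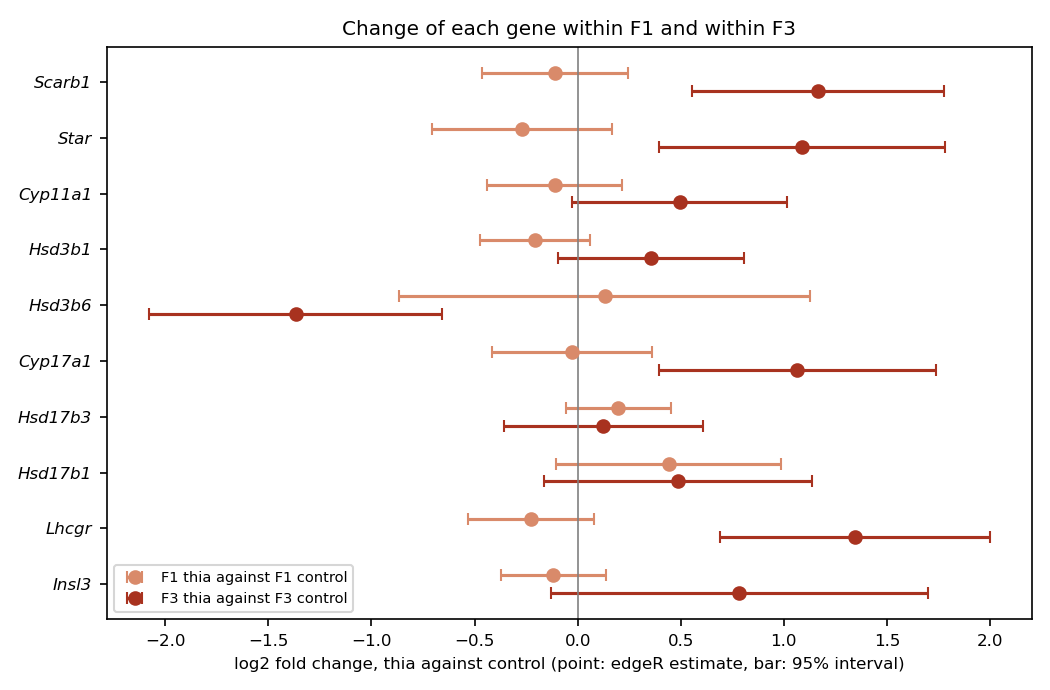
Log2 fold change of each gene between *thia* and control libraries within F1 and within F3, estimated by edgeR, with 95% intervals (3 libraries per group). All F1 intervals include 0, and the F3 intervals of *Scarb1*, *Star*, *Cyp17a1*, *Lhcgr* and *Hsd3b6* do not.

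The number of members that passed in F3 differed with and without the library that stood apart. F3 *thia* replicate 2 was the lowest library of its group for 9 members and the highest for *Hsd3b6*. Without it, edgeR called 6 members, 5 of them higher (*Scarb1*, *Star*, *Cyp11a1*, *Cyp17a1*, *Lhcgr*) and *Hsd3b6* lower, where 6.82% of all genes passed. At an unadjusted p under 0.05, 8 members were then higher and *Hsd3b6* lower, beside 11.9% and 10.4% of all genes. Without that library the log2 fold change was 0.69 for *Cyp11a1*, 0.51 for *Hsd3b1*, 0.71 for *Hsd17b1*, 0.32 for *Hsd17b3* and 1.07 for *Insl3*. At an FDR of 0.15 with all libraries, edgeR called the 5 members named above, against 9.85% of all genes. The log2 fold change of *Cyp17a1* ranged from 0.83 to 1.26 over the edgeR alternatives, that of *Scarb1* from 0.86 to 1.34, that of *Star* from 0.79 to 1.30, that of *Lhcgr* from 0.92 to 1.55 and that of *Hsd3b6* from -1.65 to -1.21.

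Whole testes were sequenced, so fewer cells of a type and less RNA per cell cannot be told apart. Levels within a library can still be set against *Hsd3b1*, the Leydig enzyme with the smallest SD relative to its mean among the 4 most abundant members in F1 controls (4.80% of the mean). This scale was chosen after the values were seen. *Cyp17a1* over *Hsd3b1* was 1.97, 2.66 and 2.36 in F3 controls and 3.88, 3.50 and 4.11 in F3 *thia* libraries. *Scarb1* over *Hsd3b1* was 0.831, 0.975 and 0.819 in F3 controls and 1.31, 1.54 and 1.73 in F3 *thia* libraries. *Star* over *Hsd3b1* was 0.455, 0.570 and 0.574 in F3 controls and 0.854, 0.794 and 1.00 in F3 *thia* libraries.

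In these 3 ratios the F3 *thia* libraries, replicate 2 included, lay above all F3 controls. *Lhcgr* over *Hsd3b1* did not overlap either, at 0.0355 to 0.0553 in controls and 0.0681 to 0.103 in *thia* libraries. *Cyp11a1* over *Hsd3b1* was 1.29 to 1.34 in F3 controls and 1.30 to 1.57 in F3 *thia* libraries, with overlap. With 3 against 3 libraries the smallest two-sided p of an exact permutation test is 0.1, which these 4 separated ratios reached, and after adjustment over the 20 ratios compared the smallest value was 0.25. The 4 numerators were already separated in CPM, and the F3 log2 fold change of *Hsd3b1*, 0.36, was smaller than theirs. The separated ratios are therefore not independent of the CPM values. In F1 the corresponding ratios of *Cyp17a1*, *Scarb1*, *Star* and *Lhcgr* overlapped.

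*Cyp17a1* was also set against *Hsd17b3*, the enzyme that uses its product. The ratio was 12.2, 19.5 and 23.3 in F3 controls and 27.9, 34.7 and 43.6 in F3 *thia* libraries (exact permutation p = 0.1). *Cyp17a1* was already separated in CPM in F3, so this ratio is not independent of that separation either. In F1 it was 12.9 to 15.2 in controls and 9.62 to 13.4 in *thia* libraries. *Hsd17b3* over *Hsd3b1* was 0.1497 to 0.155 in F1 controls and 0.175 to 0.233 in F1 *thia* libraries, and *Hsd17b1* over *Hsd3b1* was 0.0476 to 0.0776 and 0.0791 to 0.123. Both F1 ratios were free of overlap, at the smallest p the exact permutation test allows (0.1, and 0.25 after adjustment over the 20 ratios). *Hsd3b1* was chosen as the scale for its small spread in these same F1 controls, so this separation is not independent of that choice. In their own CPM values *Hsd17b3* and *Hsd17b1* overlapped between the F1 groups.

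**Figure D4:**
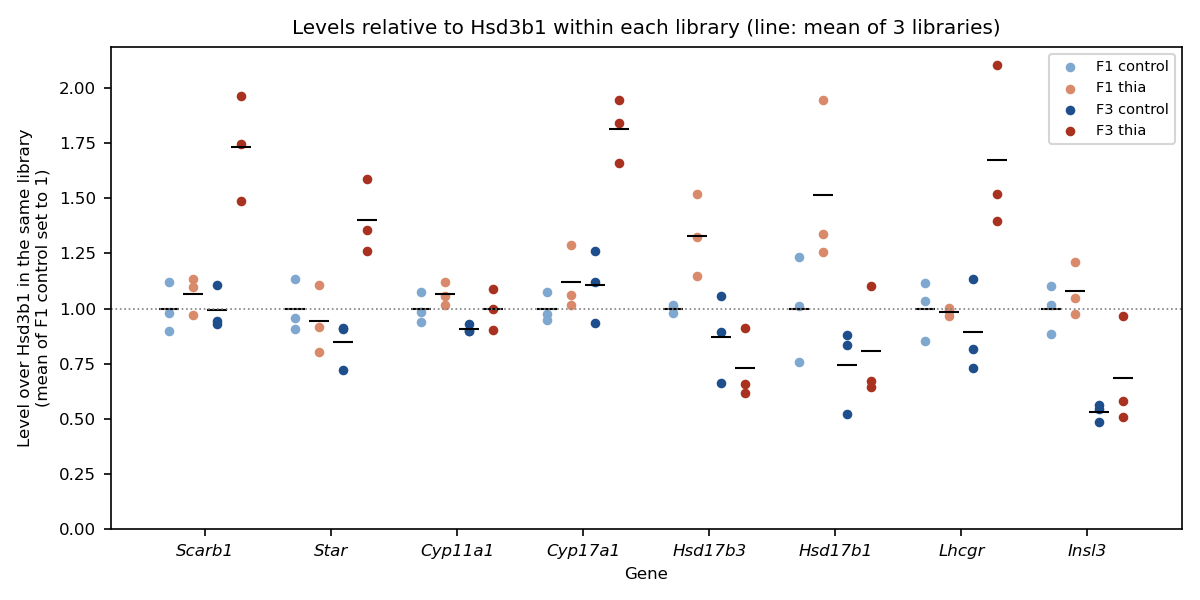
Level of each gene divided by the level of *Hsd3b1* in the same library, with the F1 control mean set to 1, for the 4 groups (points are libraries, lines are means of 3). The F3 *thia* points of *Scarb1*, *Star*, *Cyp17a1* and *Lhcgr* lie above the F3 control points, while those of *Cyp11a1*, *Hsd17b3*, *Hsd17b1* and *Insl3* overlap with them.

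Whether the effect of *thia* differed between F3 and F1 was tested in a single model of the 12 libraries. None of the members passed at an FDR of 0.1, which 0.00510% of the 19626 genes passed, and the smallest adjusted p of a member was 0.248 by edgeR. At an unadjusted p under 0.05, 6 members had a more positive effect in F3 (*Scarb1*, *Star*, *Cyp11a1*, *Hsd3b1*, *Cyp17a1* and *Lhcgr*), where 7.93% of all genes did. *Hsd3b6* had a more negative effect, where 6.10% of all genes did. The difference of the log2 fold changes was 1.59 ± 0.33 for *Lhcgr*, 1.37 ± 0.39 for *Star*, 1.29 ± 0.33 for *Scarb1*, 1.11 ± 0.37 for *Cyp17a1*, 0.63 ± 0.29 for *Cyp11a1* and 0.58 ± 0.24 for *Hsd3b1*. DESeq2 called *Lhcgr*, *Scarb1*, *Cyp17a1* and *Star* at adjusted p-values of 0.00191, 0.0187, 0.0673 and 0.0926, where 2.80% of its genes passed in that direction. For *Hsd17b3* and *Hsd17b1* the difference was -0.06 and 0.06, with 95% intervals of -0.61 to 0.50 and -0.86 to 0.99.

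The control groups of the 2 generations were compared to see the base level of each gene. The labels give no batch, so technical differences between the generations cannot be told apart from generation, and 42.3% of the 19626 genes passed at an FDR of 0.1. Of the members 3 passed, *Hsd3b6* with a higher and *Insl3* and *Hsd17b3* with a lower level in F3 controls, a smaller share than among all genes. *Hsd3b6* was 6.33-fold higher (log2 fold change 2.66 ± 0.46, adjusted p = 0.00124), *Insl3* had a log2 fold change of -1.10 ± 0.31 (adjusted p = 0.0173) and *Hsd17b3* of -0.42 ± 0.18 (adjusted p = 0.0927), all by edgeR. The F3 control libraries also served in the comparison of F3 *thia* with F3 control, so the high *Hsd3b6* values of F3 controls enter both. *Scarb1*, *Star*, *Cyp11a1*, *Hsd3b1* and *Cyp17a1* did not pass, with log2 fold changes between -0.41 and -0.03.

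Markers of other cells moved between these control groups. The erythroid list (5 of 5 genes in the files) summed to 4629 to 13947 CPM in F1 controls and 54238 to 59002 CPM in F3 controls. The Sertoli list (8 of 8 genes) summed to 1188 to 1312 and 494 to 695 CPM, beside *Hsd17b3* at 94.4 to 102 and 61.6 to 86.5 CPM. The part of blood and of Sertoli cells in the values of *Insl3* and *Hsd17b3* was not tested.

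Other genes of the pathway were read from 8 lists. In F3, 4 of the 7 electron donors and cofactors of the steroid enzymes were higher at an unadjusted edgeR p under 0.05, beside 11.0% of all genes in that direction, with a median log2 fold change of 0.42. *Por*, which passes electrons to *Cyp17a1*, was at 96.4, 114 and 108 CPM in F3 controls and at 152, 146 and 201 CPM in F3 *thia* libraries (log2 fold change 0.65 ± 0.14, adjusted p = 0.105 by edgeR and 0.00109 by DESeq2). *Cyb5r3*, a cytochrome b5 reductase, had a log2 fold change of 0.53 ± 0.11 (adjusted p = 0.105 by edgeR and 0.00124 by DESeq2). In F1 none of the 7 reached an unadjusted p of 0.05, and the values with the smallest p were 0.16 for *H6pd* and -0.15 for *Fdx1*.

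Of the 9 genes of cholesterol supply, 2 reached an unadjusted p under 0.05 in F3, both higher, beside 11.0% of all genes. *Npc1*, which releases cholesterol from lysosomes, had a log2 fold change of 0.36 ± 0.07 (adjusted p = 0.105 by edgeR and 0.00375 by DESeq2). The median of the list was 0.11. In F1 none of the 9 did so, and *Soat1* and *Npc2* had the smallest p, with log2 fold changes of -0.18 and 0.13.

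Of the other fetal Leydig markers, 3 of 6 were higher in F3 at an unadjusted p under 0.05, beside 11.0% of all genes. Their median log2 fold change was 0.62. *Prlr*, the prolactin receptor, was at 23.7, 32.0 and 27.6 CPM in F3 controls and at 60.9, 47.7 and 83.9 CPM in F3 *thia* libraries, a log2 fold change of 1.21 ± 0.21 (adjusted p = 0.105 by edgeR and 3.01e-06 by DESeq2). *Thbs2*, an extracellular matrix protein, had a log2 fold change of 0.75 ± 0.11 (0.101 and 5.92e-06). In F1 none of the 6 reached an unadjusted p of 0.05, *Dlk1* and *Prlr* having log2 fold changes of 0.23 and -0.12.

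Among the transcription regulators 3 of 12 reached an unadjusted p under 0.05 in F3, all higher, beside 11.0% of all genes. The median of the list was 0.09. *Nr5a1*, which encodes NR5A1, was at 128, 168 and 161 CPM in F3 controls and at 218, 169.7 and 266 CPM in F3 *thia* libraries, a log2 fold change of 0.52 ± 0.18 (adjusted p = 0.167 by edgeR and 0.0406 by DESeq2). *Gata4*, another activator of gonadal genes, had 0.41 ± 0.14 (0.166 and 0.0582). In F1 only *Nr0b1*, a repressor that binds NR5A1, reached an unadjusted p under 0.05, at 0.27 ± 0.12, and *Sp1* was at -0.20. Sertoli cells also express *Nr5a1* and *Gata4*, and 3 of the 12 genes, *Nr2f2* and *Tcf21* among them, were also in the interstitial progenitor list.

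The cAMP signalling list, through which luteinizing hormone acts, had 2 of 8 genes higher at an unadjusted p under 0.05 in F3, beside 11.0% of all genes. They were the phosphodiesterases *Pde8a* (0.50 ± 0.13, adjusted p = 0.122 by edgeR) and *Pde8b* (0.61 ± 0.22, adjusted p = 0.179 by edgeR). The median of the list was 0.06 in F3. In F1 none of the 8 reached that p, and *Gnas* and *Prkaca* had log2 fold changes of 0.15 and 0.10. Of the 4 hormone receptors *Esr1*, the estrogen receptor alpha, had a log2 fold change of 0.59 ± 0.13 in F3 (adjusted p = 0.105 by edgeR and 0.00262 by DESeq2). In F1 the value of *Esr1* was 0.17.

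Among 18 other steroid enzymes, 17 were in the files. In F1 3 of the 14 tested had an unadjusted p under 0.05, all lower, where 4.13% of all genes were lower at that p. *Cyp11b1*, the 11-hydroxylase best known from the adrenal, was at 34.4, 29.2 and 22.6 CPM in F1 controls and at 18.9, 17.5 and 12.6 CPM in F1 *thia* libraries, a log2 fold change of -0.81 ± 0.18 (adjusted p = 0.408 by edgeR and 0.00287 by DESeq2). *Cyp21a1*, the 21-hydroxylase, had -0.70 ± 0.22 (0.507 and 0.102). DESeq2 thus called both at its FDR of 0.15 in F1. The adrenal cortex marker list, which holds both genes, summed to 52.0 to 67.2 CPM in F1 controls and 36.8 to 48.4 CPM in F1 *thia* libraries, without overlap. The part of adrenal cells in these values was not tested.

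In F3 5 of 15 of these enzymes had an unadjusted p under 0.05, 4 higher and 1 lower, where 11.0% of all genes were higher and 10.0% lower at that p. *Hsd17b7* had a log2 fold change of 0.62 ± 0.15 (adjusted p = 0.110 by edgeR and 0.00453 by DESeq2) and *Hsd17b10*, a mitochondrial dehydrogenase, -0.31 ± 0.09 (0.131 and 0.0559). *Cyp21a1* and *Cyp11b1* had log2 fold changes of 1.07 ± 0.41 and 0.53 ± 0.36 in F3. Of the *Hsd3b* relatives, 4 of the 6 listed were in the files and *Hsd3b3* was the sole gene tested in F3, at 0.0539 to 0.903 CPM in controls and 0.195 to 3.45 CPM in *thia* libraries, with overlap. Its log2 fold change turned from 1.77 to -0.61 without F3 *thia* replicate 2. None of the paralogues was tested in F1, where *Hsd3b3* was at 0 to 0.0496 CPM.

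Without F3 *thia* replicate 2 the genes higher at an unadjusted p under 0.05 in F3 were 5 of 7 electron donors and cofactors (median log2 fold change 0.51) and 5 of 6 other fetal Leydig markers (0.72). They were 2 of 9 genes of cholesterol supply (0.04), 2 of 8 of cAMP signalling (0.03), 3 of 12 transcription regulators (0.11) and 1 of 4 hormone receptors (0.19). Of the other steroid enzymes 5 of the 16 then tested were higher and 1 was lower (0.26). Of all genes, 11.9% were then higher and 10.4% lower at that p. The genes named above for reaching that p in F3 by the rule on the smallest p all had the same direction without this library. Apart from *Gata4* (adjusted p = 0.107 by edgeR) they then passed at the FDR of 0.1, where 6.82% of all genes passed. These genes were picked by their p in a fit that held the same remaining libraries, so this is not independent evidence.

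**Figure D5:**
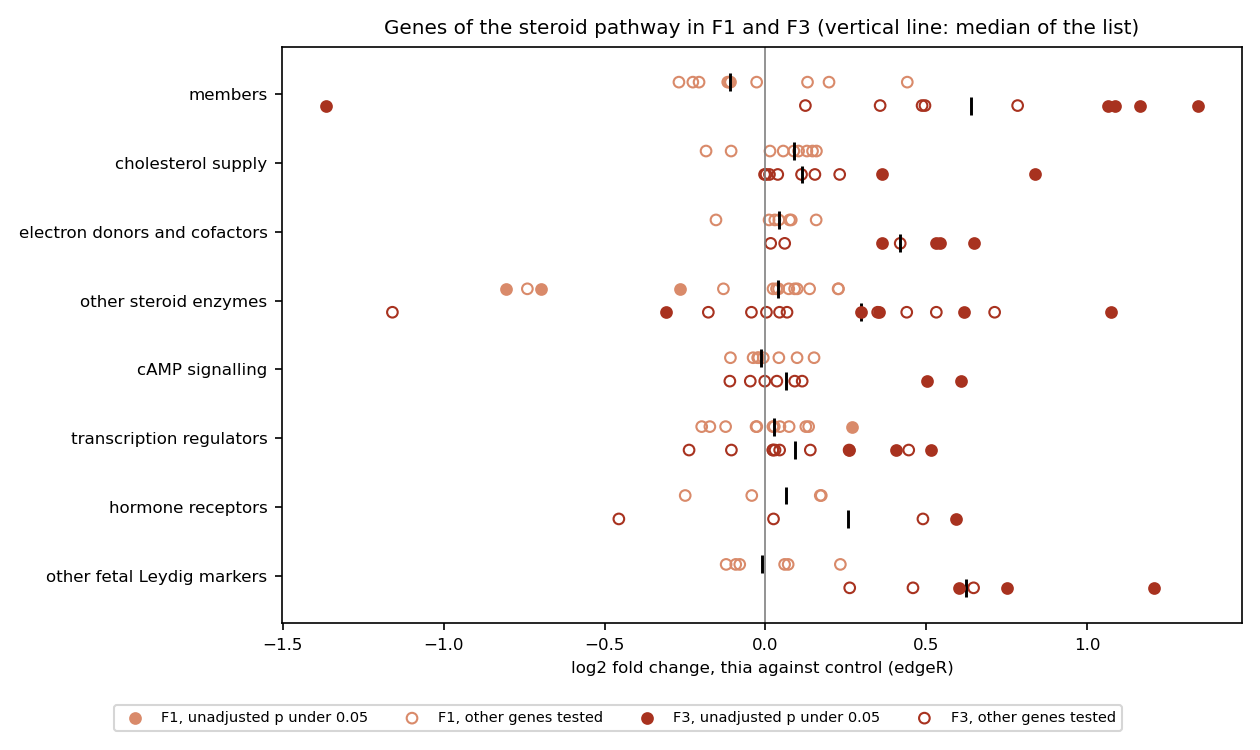
Log2 fold changes by edgeR between *thia* and control libraries for the 10 members and for 7 pathway lists, in F1 and in F3 (each point is a gene, filled where the unadjusted p is under 0.05, and the vertical line is the median of the list). The F3 medians of the members, of the electron donors and of the other fetal Leydig markers are 0.64, 0.42 and 0.62, and the F1 medians of all lists lie between -0.11 and 0.09.

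Markers of other cells were read beside the F3 values. The endothelial list (6 of 6 genes in the files) summed to 157 to 181 CPM in F3 controls and 233 to 276 CPM in F3 *thia* libraries, without overlap, and *Cdh5* had a log2 fold change of 1.14 ± 0.16. Of its 6 genes 5 were higher at an unadjusted p under 0.05, beside 11.0% of all genes. Without F3 *thia* replicate 2 this held for 4, beside 11.9% of all genes. The adrenal cortex list (5 of 5) summed to 39.6 to 59.5 and 66.2 to 122 CPM, without overlap. Gene by gene, the 4 tested were all higher, but 0 of them without overlap and 1 at an unadjusted p under 0.05. Without F3 *thia* replicate 2, 3 of the 5 then tested were higher at that p. The list shares *Cyp21a1* and *Cyp11b1* with the enzymes above and *Mc2r* with the Leydig markers, which adrenal-like cells of the fetal testis are known to express. Of its 5 genes 1, the aldosterone synthase *Cyp11b2*, was under 1 CPM in every library. The interstitial progenitor list (6 of 6) summed to 1119 to 1284 and 1266 to 1429 CPM, with overlap. Gene by gene, 5 of the 6 were higher, 4 of them at an unadjusted p under 0.05 and 3 without overlap. Of all genes, 11.0% were higher at that p and 13.4% without overlap. The median log2 fold change of the list was 0.31. *Ptch1*, the hedgehog receptor, had a log2 fold change of 0.62 ± 0.12 and *Pdgfra*, a growth factor receptor of interstitial cells, 0.46 ± 0.10, whereas *Tcf21*, at 361 to 428 CPM in controls and 309 to 389 CPM in *thia* libraries, had -0.24 ± 0.11. Without F3 *thia* replicate 2, 2 of the 6 were higher and 1 was lower at that p, beside 11.9% and 10.4% of all genes. The median was then 0.28.

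The Sertoli list summed to 494 to 695 CPM in F3 controls and 462 to 905 CPM in F3 *thia* libraries, and the germ cell list (8 of 8) to 549 to 845 and 356 to 650 CPM, both with overlap. All 8 germ cell genes had a negative log2 fold change, with a median of -0.68. At an unadjusted p under 0.05, 4 of them were lower, *Pou5f1* (-0.98 ± 0.35), *Dppa3* (-1.34 ± 0.50), *Mael* (-0.48 ± 0.20) and *Nanos3* (-0.97 ± 0.39), beside 10.0% of all genes. Of the 8, 1 lay lower without overlap, where 13.9% of all genes did. Without F3 *thia* replicate 2 all 8 values were still negative, with 2 at that p, beside 10.4% of all genes, and a median of -0.39. Of the Sertoli genes 1 of 8 was higher at that p with all libraries and 4 of 8 without this one. The shares of all genes were 11.0% and 11.9%. The macrophage list (5 of 5) and the erythroid list overlapped as well, at 80.8 to 131 and 82.2 to 143 CPM and at 54238 to 59002 and 38222 to 74884 CPM. The skeletal muscle list (8 of 8) summed to 66.5 to 221 and 64.1 to 178 CPM, the ovary list (5 of 5) to 116 to 128 and 109.6 to 139 CPM and the chromaffin list (5 of 5) to 8.15 to 10.9 and 10.6 to 11.5 CPM. Without F3 *thia* replicate 2, 4 of the 5 erythroid and 5 of the 8 skeletal muscle genes were lower at an unadjusted p under 0.05, with median log2 fold changes of -0.60 and -1.31. With all libraries 0 and 1 were lower. The shares of all genes lower in F3 were 10.4% without this library and 10.0% with it. In F1, 6 of 8 germ cell, 2 of 4 adrenal cortex and 1 of 8 Sertoli genes were lower at that p. The germ cell median there was -0.56. The macrophage and mesonephros lists each had 3 of 5 genes higher in F1, and the skeletal muscle list 4 of 8. The chromaffin list had 2 of 4 and the ovary list 1 of 5 higher. Of all genes, 4.13% were lower and 4.63% higher. The endothelial, interstitial progenitor and erythroid lists had 0 genes at that p in F1. The part of these cells in the values of the members was not tested.

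Across the 12 libraries the members formed sets by the correlation of their log2 CPM, which is given as a description, since the points share groups and scaling. *Scarb1*, *Star*, *Cyp11a1*, *Hsd3b1*, *Cyp17a1* and *Lhcgr* had pairwise Pearson correlations of 0.68 to 0.97, with a median of 0.88 over 15 pairs. After the group means were removed, the correlations were 0.58 to 0.98, so these genes also went up and down together between pools of the same group. *Hsd17b3* and *Hsd17b1* correlated with each other at 0.87 and with the 6 genes at -0.09 to 0.48. Within groups these values were 0.79 and 0.36 to 0.61, so the pair also followed the 6 genes between pools of a group, less closely. *Insl3* correlated with the 6 at 0.30 to 0.71 over all libraries and at 0.79 to 0.87 within groups, and *Hsd3b6* at -0.31 to 0.02 and at -0.38 to -0.13.

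A core score, the mean of centred log2 CPM over *Star*, *Cyp11a1*, *Hsd3b1* and *Cyp17a1*, summarised each library. It was -0.71, -0.01 and -0.10 in F3 controls and 0.52, 0.04 and 0.86 in F3 *thia* libraries, and 0.10, 0.02 and -0.14 in F1 controls and -0.49, -0.27 and 0.16 in F1 *thia* libraries. F3 *thia* replicate 2 was the closest of its group to the controls. Among 15392 genes with a mean of at least 1 CPM, the 5 outside the members whose log2 CPM followed this score most closely over the 12 libraries were *Cyp51* (r = 0.97), *Nsdhl* (0.96), *Gprc5a* (0.96), *Slc7a8* (0.95) and *Aebp1* (0.95). With the group means removed these correlations were 0.95, 0.93, 0.95, 0.95 and 0.95.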

How the data were processed

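RNA was measured in 3 control and 3 *thia* libraries per generation, with a directional kit and paired reads. Per the labels and the methods, the authors demultiplexed with bcl2fastq 2.20.0.422, mapped to mm10 with HISAT2 2.1.0 and counted reads per gene with featureCounts. The deposited values are raw counts per gene symbol for each library, without normalization. The authors used DESeq2 2.11.40.7, and their FDR of 0.15 in F1 and 0.1 in F3 was kept. The members and gene lists were chosen with earlier results of these data known.

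The main test here was that of edgeR 4.0.16 in R 4.3.3 (filterByExpr at a minimum of 10 counts, TMM scaling, legacy quasi-likelihood fit, Benjamini-Hochberg over all genes tested) within each generation. The difference between generations and the 2 control groups were compared over all 12 libraries. Standard errors come from the quasi-likelihood F value. DESeq2 1.42.0 (Wald test) was an alternative. Further alternatives were scaling by upper quartile or by DESeq2 size factors, 10 counts in every library or no filter, bias-adjusted deviances, 12 libraries in 1 fit, an FDR of 0.05, a replicate block and the removal of each library. The pipeline was tested on simulated data.

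Exon lengths, overlaps and identical stretches of 100 bases came from GENCODE M21, and promoters from RefSeq (Biopython 1.88, SciPy 1.17.1). Log2 CPM used a prior count of 2. Named are all members, the up to 2 genes of each pathway list with the smallest p in each generation, and the 5 genes most like the core score. *Cdh5*, *Cdh16*, *Pax2*, *Ptch1*, *Pdgfra*, *Pou5f1*, *Dppa3*, *Mael*, *Nanos3*, *Jak3*, *Cyp11b2* and *Mc2r*, and *Cyp21a1* and *Cyp11b1* in F3, were named after their values were seen. *Sts*, *Hsd3b8* and *Hsd3b9* were not analysed here, and some genes counted in the lists are not reported here by name.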

Additional observations from a re-analysis of the deposited data

Results flagged for a closer look

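The estimated effects of *thia* on *Hsd3b1* and *Lhcgr* had opposite signs in the 2 generations, as did those on *Scarb1*, *Star*, *Cyp11a1*, *Cyp17a1* and *Insl3*. The 95% interval of *Hsd3b1* ran from -0.47 to 0.06 in F1 and from -0.09 to 0.81 in F3. That of *Lhcgr* ran from -0.53 to 0.08 in F1. The sign was therefore not settled for *Hsd3b1* in either generation or for *Lhcgr* in F1. For *Hsd3b1* and *Lhcgr* every F1 *thia* library lay below the F1 control mean and every F3 *thia* library above the F3 control mean. The closest *Hsd3b1* library was at 641 against 643 CPM in F1 and at 565 against 563 CPM in F3. The effect in F3 minus that in F1 was 0.58 for *Hsd3b1* and 1.59 for *Lhcgr* on the log2 scale, with 95% intervals of 0.06 to 1.10 and 0.87 to 2.30. Neither passed the edgeR test of the difference at an FDR of 0.1 (adjusted p = 0.310 and 0.248), and DESeq2 called *Lhcgr* (adjusted p = 0.00191) but not *Hsd3b1* (0.184). Groups of 3 libraries are too small for a test of single outlying libraries.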

How the results depend on the processing

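In F1, 0 members passed under every alternative run, each library left out included. In F3 the count was 0 by edgeR, 5 by DESeq2, 5 at an FDR of 0.15, 5 without a filter (1.85% of all genes), 5 with 12 libraries in the fit (9.86%), 3 with upper quartile scaling (*Scarb1*, *Lhcgr*, *Hsd3b6*; 2.80%) and 1 with at least 10 counts in every library (*Lhcgr*; 1.94%). It was 0 with DESeq2 size factors, bias-adjusted deviances, an FDR of 0.05 or a replicate block. Leaving out a library gave 0 to 6, and the 6 came without F3 *thia* replicate 2. For the difference between generations DESeq2 called 4 members and every edgeR alternative 0. Between controls 2 to 4 members passed, where 23.8% to 46.7% of all genes did under the edgeR alternatives.

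The replicate numbers did not pair the samples. The correlations of deviations between same-numbered control and *thia* libraries were -0.04, -0.04 and 0.03 in F1 and 0.19, -0.37 and -0.24 in F3. With a replicate block 0 members passed in F1, 0 in F3, 0 in the difference and 2 between controls, where 39.3% of all genes passed.

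Some log2 fold changes near 0 changed sign. With each library left out, those in F1 ran from -0.25 to 0.040 for *Scarb1*, -0.28 to 0.0114 for *Cyp11a1*, -0.28 to 0.10 for *Cyp17a1* and -0.39 to 0.83 for *Hsd3b6*, and in F3 from -0.075 to 0.32 for *Hsd17b3*. The difference between generations ran from -0.22 to 0.14 for *Hsd17b3* and -0.20 to 0.44 for *Hsd17b1*, and that between controls from -0.23 to 0.21 for *Cyp17a1*. With upper quartile scaling *Hsd17b1* was at -0.0074 in the difference and *Cyp17a1* at 0.063 between controls. None of these values passed a test. Scaled by the library total alone, the mean CPM moved by more than 1 SD for *Hsd3b1* (687) and *Hsd17b3* (105) in F1 controls and *Insl3* (159.5) in F1 *thia*, and the other 117 of 120 levels moved less. The ratio of *Cyp17a1* to *Hsd3b1* in F3 *thia* was 1.52 to 1.77 times that in F3 controls with each library left out.

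In F3 the smallest adjusted p over all genes by edgeR was 0.101, next to the threshold of 0.1. Depth limits *Hsd3b6* in F1 the most, at 33 to 221 counts.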
